A study of Mus musculus with 2 samples.

Results

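The genes described here are 10 genes of the MHC class II pathway among the 32285 genes counted in the series. They were chosen by name: the chain genes H2-Aa, H2-Ab1 and H2-Eb1, the invariant chain gene Cd74, the peptide editor genes H2-DMa, H2-DMb1, H2-DMb2, H2-Oa and H2-Ob, and Ciita, the gene of the class II transactivator. All 10 were measured. Thymocytes of Ctrl mice and of T-KO mice, in which a floxed Kidins220 gene is deleted by Cre under the proximal Lck promoter, were sorted as stage 0 (TCRβ+, CD1d tetramer+, CD24+, NK1.1-) and stage 3 (TCRβ+, CD1d tetramer+, NK1.1+, CD24-, CD44+) iNKT cells. Neither gate selects for antigen-presenting cells. The labels give the genotype of the samples as C57BL/6, and no age. Each population came from 4 pooled thymi, and each sort was done for 2 pools. The 8 sorted populations were marked with hashtag antibodies, pooled, and read as a single droplet library from the 5′ end of transcripts, with a second library of hashtags.

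No label or method ties the hashtag rows to a stage or genotype. The labels name hashtags 1 to 8, whereas 99.9% of the hashtag UMIs (unique molecular identifiers, 1 per captured molecule) lay on rows 11 to 18. Which row marks which population was stated in neither the labels nor the methods. The rows are therefore given by number, Ctrl and T-KO were not compared, and no test between groups was possible. Of 16179 barcodes, all with 1 suffix and hence of 1 library, 12147 passed the filters (at least 1000 genes, at most 5% mitochondrial UMIs). Of these, 10007 had at least 80% of at least 10 hashtag UMIs on a single row and are called cells here. The rows held 577 to 2162 cells and 2283162 to 14601545 gene UMIs, with a median of 6500 to 8068 UMIs per cell in the odd rows (11, 13, 15, 17) and 3258 to 3804 in the even rows (12, 14, 16, 18). The labelled cell type is iNKT. The 6 iNKT1 markers (among them Zbtb16, Tbx21 and Klrb1c) summed to between 2881 and 3215 CPM (UMIs per 1000000 gene UMIs) in the even rows. In the odd rows they summed to between 150 and 175 CPM. Klrb1c encodes NK1.1, which the stage 0 gate excludes, so a low sum does not show whether cells are iNKT cells.

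MHC class II molecules present peptides from endosomes to CD4 T cells. Their α and β chains assemble with the invariant chain (Cd74), which blocks the groove until it is degraded, and H2-DM then exchanges its remnant for other peptides. H2-O binds H2-DM and restrains it. Ciita switches the class II genes on together with factors bound at the X and Y boxes of their promoters. In the thymus, epithelial cells, dendritic cells and B cells carry class II molecules, whereas mouse T cells are generally taken to lack them. H2-Aa and H2-Ab1 encode the chains of H2-A, and H2-Eb1 encodes the β chain of H2-E, whose α chain gene is defective in C57BL/6 mice. The levels below are of RNA, not of protein.

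Class II RNA was concentrated in the odd rows. Cd74 lay at 16335, 8641, 8364 and 5737 CPM in rows 11, 13, 15 and 17, and at 448, 269.7, 589 and 632 CPM in rows 12, 14, 16 and 18. The groups of rows did not overlap, and row 11 was highest. H2-Aa took 4903, 2368, 2425 and 1663 CPM in the odd rows and between 90.6 and 193.8 CPM in the even rows. Ciita ran from 43.9 to 121 CPM in the odd and from 3.56 to 6.61 CPM in the even rows. All 10 genes were at least 2-fold higher over the pooled odd rows than over the pooled even rows, and higher in each odd row than in every even row, whereas 6.37% of the 14029 genes compared met this rule. The fold (on CPM + 10) ran from 5.64 for Ciita and 5.71 for H2-DMa to 22.3 for Cd74. The added 10 CPM lowers it most for genes of low level. Ciita had pooled levels of 74.1 against 4.93 CPM, and H2-DMa of 247 against 35 CPM. Much of the difference followed the cells in the rows: 1347 of the 4249 cells in the odd rows, but 66 of the 5758 in the even rows, met a criterion of an antigen-presenting class described next.

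**Figure D1:**
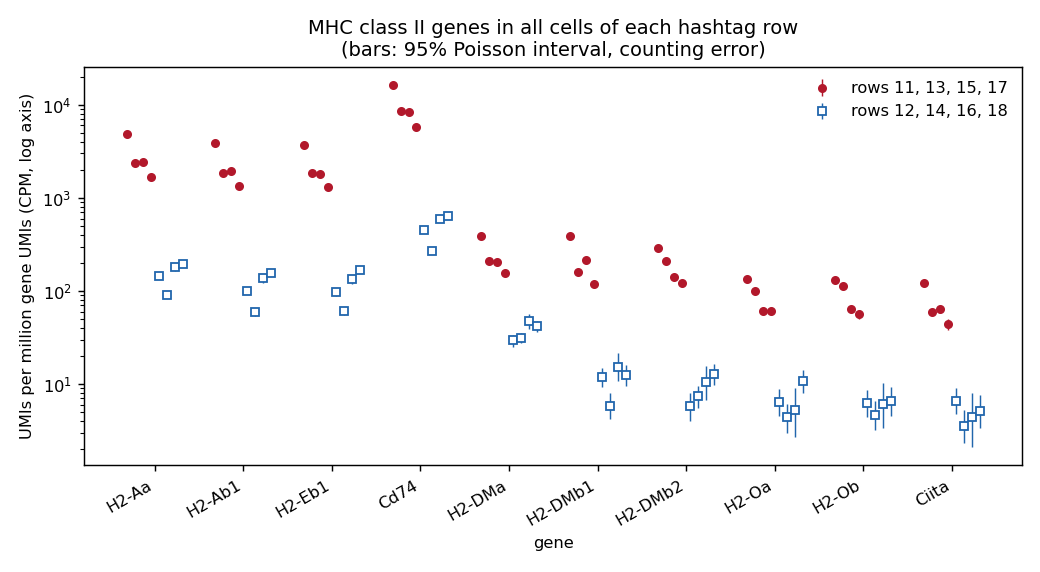
Level of each MHC class II gene in each hashtag row, as UMIs per 1000000 gene UMIs on a log axis, with filled circles for rows 11, 13, 15 and 17 (left to right) and open squares for rows 12, 14, 16 and 18. Bars are 95% Poisson intervals of counting error. The circles lie above all the squares for every gene, for example Cd74 at 5737 or more against 632 or less.

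The cells of the odd rows were split by the first criterion they met. Cells with at least 2 UMIs of Cd79a, a signalling chain of the B cell receptor, numbered 810. Cells with a UMI of Xcr1 or Clec9a, receptors of type 1 conventional dendritic cells (cDC1), numbered 432. Cells with at least 3 UMIs of the lysozyme gene Lyz2 numbered 105. Next came 455 cells with a UMI of the recombinase gene Rag1, 1166 with at least 2 UMIs of Ikzf2 (Helios), and a rest of 1281. Each class was checked against marker lists, which include the gene of its criterion. All 10 B cell markers reached 20 CPM in the Cd79a class, and all 9 cDC1 markers in the Xcr1/Clec9a class. In the Lyz2 class, 8 of 10 markers of type 2 dendritic cells and monocytes did so, with a sum of 3453 CPM. The cDC1 markers summed to 6204 CPM in that class, with 5 of 9 at 20 CPM, against 24391 CPM in the Xcr1/Clec9a class. Most of either sum was Cst3, a gene of this list, with means of 54.9 and 239 UMIs per cell. The Rag1 and Ikzf2 classes had the 6 T cell markers at 2474 and 3113 CPM in sum, against 282, 249 and 153 CPM in the Cd79a, Xcr1/Clec9a and Lyz2 classes. In these 3 classes, 18.5%, 23.1% and 16.2% of the cells still held at least 2 UMIs of Cd3d, Cd3e, Cd3g and Trac. Row 17 had only 7 Lyz2 cells, so that the ranges of that class come from 3 rows and its pooled value from all 4.

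The chain genes and Cd74 were high in all 3 antigen-presenting classes. Cd74 stood at 19079, 19099, 19269 and 19953 CPM in the Cd79a cells of rows 11, 13, 15 and 17. It stood at 29049, 28537, 27990.3 and 31508 CPM in the Xcr1/Clec9a cells of the same rows. In the Lyz2 cells it was 36697, 25544 and 35715 CPM in rows 11, 13 and 15. The Xcr1/Clec9a cells were above the Cd79a cells in 4 of 4 rows, at 1.5-fold the pooled level, while the Lyz2 and Xcr1/Clec9a ranges overlapped. All 3 classes lay far above the T cell classes, where Cd74 had a pooled level of 522 CPM (Rag1) and 313 CPM (Ikzf2).

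H2-Aa and H2-Ab1 separated the Xcr1/Clec9a from the Cd79a class more than Cd74 did. H2-Aa lay between 4377 and 4699 CPM in the Cd79a cells and between 9068 and 9811 CPM in the Xcr1/Clec9a cells. H2-Ab1 lay between 2805 and 3070 CPM in the former and between 7027 and 8016 CPM in the latter. For H2-Eb1 the ranges were 3700 to 3746 CPM and 5997 to 7165 CPM, a 1.71-fold step of the pooled level. With a call defined as no overlap of the rows and at least 2-fold by pooled CPM + 10, 3 of the 10 genes were called higher in the Xcr1/Clec9a than in the Cd79a class (H2-Aa, H2-Ab1 and H2-DMb1), where 7.24% of the 11268 genes compared were. In the opposite direction 3 were called (H2-DMb2, H2-Oa and H2-Ob), against 5.34% of genes. The Lyz2 class was called above the Cd79a class for 5 genes (H2-Aa, H2-Ab1, H2-Eb1, H2-DMa and H2-DMb1) with 7.61% of all genes, and below it for the same 3 editor genes with 4.58%. Against the Xcr1/Clec9a class the Lyz2 class was called higher for H2-DMb2 alone (3.03% of genes) and lower for none of the 10 (1.49%). Relative to the Ikzf2 class, all 10 genes were called higher in the Cd79a, the Xcr1/Clec9a and the Lyz2 class, where 5.27%, 6.37% and 7.14% of genes were.

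**Figure D2:**
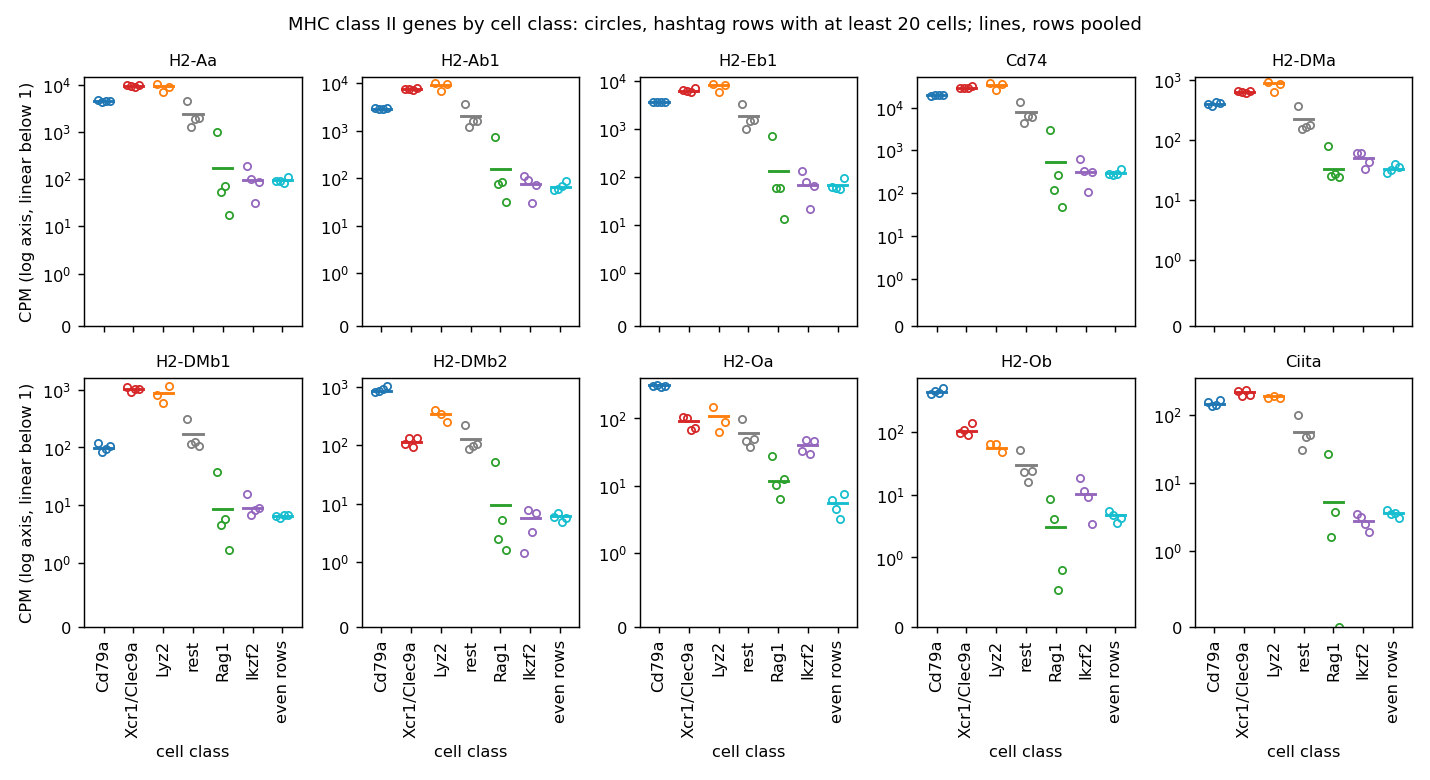
Level of each gene by cell class of the odd rows, with the even rows (cells meeting no antigen-presenting criterion) at the right, in CPM on a log axis that is linear below 1. Circles are hashtag rows with at least 20 cells of the class, and lines are the rows pooled. H2-DMb1 drops from 1027 CPM in the Xcr1/Clec9a class to 99.6 in the Cd79a class, while H2-DMb2 goes from 114 to 848.

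The H2-DM β chain is encoded by a pair of neighbouring genes, and these divided the classes. H2-DMb1 lay at 121, 84.5, 94.8 and 106 CPM in the Cd79a cells of rows 11, 13, 15 and 17, and at 1114, 920, 1042 and 1014 CPM in the Xcr1/Clec9a cells. H2-DMb2 had the reverse order, with 797, 841, 909.5 and 1011 CPM in the Cd79a cells and 106, 133, 93.9 and 134 CPM in the Xcr1/Clec9a cells. The classes did not overlap for either gene. The pooled fold of the Xcr1/Clec9a over the Cd79a class (on CPM + 10) was 9.46 for H2-DMb1 and 0.144 for H2-DMb2. As a share of the UMIs of both genes, H2-DMb2 made up 86.8% to 90.9% in the Cd79a class and 8.27% to 12.6% in the Xcr1/Clec9a class. The Lyz2 class fell between them, at 33.0% in row 11, 37.3% in row 13 and 17.6% in row 15. H2-DMa, the α chain gene common to both, moved much less, from 389 CPM in the Cd79a class to 632 CPM in the Xcr1/Clec9a class and 879 CPM in the Lyz2 class. The β genes share sequence: of all stretches of 50 bases in the longest annotated transcript, 27.2% for H2-DMb1 and 25.2% for H2-DMb2 also occur in the other gene. Neither the labels nor the methods say how the counting treated reads that match both, and each gene's count may miss some of its reads.

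The H2-O genes were highest in the Cd79a class. H2-Oa, its α chain gene, lay at 308, 318, 298 and 301 CPM in the Cd79a cells of rows 11, 13, 15 and 17, against 104, 99.97, 66.9 and 72.6 CPM in the Xcr1/Clec9a cells. H2-Ob, its β chain gene, lay at 403, 448, 423 and 499 CPM in the Cd79a cells and at 97.1, 109, 89.6 and 137 CPM in the Xcr1/Clec9a cells. Both genes were above their Xcr1/Clec9a level in 4 of 4 rows, and H2-Ob was lower still in the Lyz2 cells (48.1 to 63.9 CPM). Set against H2-DMa, H2-Oa made up 41.1% to 46.3% of the UMIs of this pair in the Cd79a class, 10% to 13.8% in the Xcr1/Clec9a class and 9.09% to 14% in the Lyz2 class. These are shares of UMIs and not of assembled protein.

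**Figure D3:**
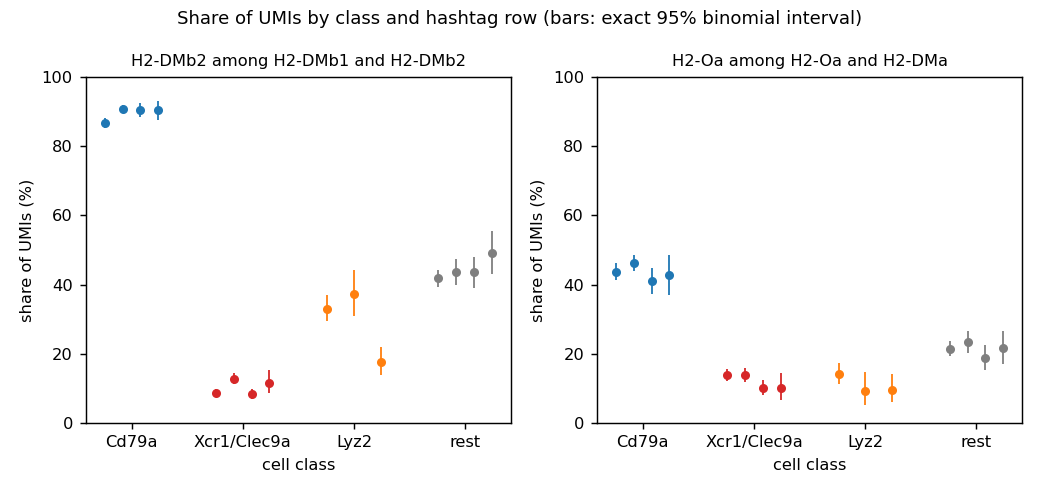
Share of H2-DMb2 among the UMIs of H2-DMb1 and H2-DMb2 (left) and of H2-Oa among those of H2-Oa and H2-DMa (right), in percent, for each class of the odd rows and each hashtag row with at least 20 cells. Bars are exact 95% binomial intervals. The Cd79a class lies at 86.8% or more on the left, and the Xcr1/Clec9a class at 12.6% or less.

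The promoters of these genes are shown because the members of a pair differ in the classes that carry them. The sequences are those of RefSeq on build GRCm38.p6, which had a window of 250 bases before to 50 bases after the start of the gene for 7 of the 10 genes, namely H2-Aa, H2-Eb1, H2-DMa, H2-DMb1, H2-DMb2, H2-Oa and H2-Ob. Each stretch runs 5′ to 3′ on the strand of its gene, from base -150 to base -31. Capitals mark an X box motif, spelled AG, any 2 bases, AC, any 2 bases, ATG, or a Y box motif, spelled GATTGG, on either strand. GATTGG holds the reverse complement of CCAAT, the letters that NF-Y binds, and the capitals at the end of H2-Eb1 are such a motif of the other strand, cut off at the edge. The 2 motifs do not overlap in these windows and were chosen after the sequences had been seen. H2-DMa, which has windows at more than 1 start, is not shown.

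H2-Eb1, chr17:34305717-34305836, plus strand: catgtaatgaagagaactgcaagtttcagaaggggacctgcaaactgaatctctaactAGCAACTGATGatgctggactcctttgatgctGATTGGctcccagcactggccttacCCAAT
H2-Ob, chr17:34238755-34238874, plus strand: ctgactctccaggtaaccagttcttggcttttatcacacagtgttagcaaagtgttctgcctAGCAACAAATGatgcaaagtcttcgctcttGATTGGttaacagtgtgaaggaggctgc
H2-DMb1, chr17:34153041-34153160, plus strand: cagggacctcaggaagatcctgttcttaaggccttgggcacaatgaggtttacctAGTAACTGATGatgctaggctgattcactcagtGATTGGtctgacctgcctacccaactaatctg
H2-DMb2, chr17:34145099-34145218, plus strand: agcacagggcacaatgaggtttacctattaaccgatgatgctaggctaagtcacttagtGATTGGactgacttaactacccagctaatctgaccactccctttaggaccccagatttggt
H2-Aa, chr17:34287854-34287973, minus strand: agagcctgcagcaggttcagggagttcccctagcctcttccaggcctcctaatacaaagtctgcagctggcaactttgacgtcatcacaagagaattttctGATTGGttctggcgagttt
H2-Oa, chr17:34092229-34092348, plus strand: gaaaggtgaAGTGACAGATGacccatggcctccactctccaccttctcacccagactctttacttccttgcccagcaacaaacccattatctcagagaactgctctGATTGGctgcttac

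The Y letters stood on the gene's strand in all 6 of the windows shown, between base -91 (H2-DMb2) and base -44 (H2-Oa). H2-DMa, which is not shown, had no X letters, and Y letters only at base -199 in a single window. On either strand, 16.1% of all 32851 windows of this length hold them. The X letters stood on the gene's strand in H2-Eb1, H2-Ob, H2-DMb1 and H2-Oa. Of all windows, 1.61% hold them on the gene's strand and 3.09% on either strand. In H2-Oa they began at base -141, far from the Y letters at base -44. Only this exact spelling was searched, so an X box of other letters in H2-Oa, H2-Aa or H2-DMb2 would not be marked. In H2-Ob, H2-Eb1 and H2-DMb1 the Y letters began 30, 32 and 33 bases after the first X letter. A Y motif within 45 bases after an X motif occurred on the gene's strand in 10 of the 32851 windows (0.0304%). Of these 10, 3 were the windows of H2-Ob, H2-Eb1 and H2-DMb1, with a further window of H2-Eb2, another β chain gene of the locus. The spellings were chosen with the windows of the members in view, so these counts do not test the members against other genes. Lined up on the Y letters, a stretch of 90 bases of H2-DMb1 (chr17:34153069-34153158) and of H2-DMb2 (chr17:34145098-34145187) differed at 14 bases. Counted from 1 at the 5′ end of that stretch, the X letters of H2-DMb1 span positions 28 to 38, and the differences there, with the H2-DMb1 base first, were G29T and T34C. These matches describe letters in a window and are not evidence of binding.

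Ciita was high in all 3 antigen-presenting classes, without the split seen for the editors. It lay at 154, 135, 142 and 168 CPM in the Cd79a cells of rows 11, 13, 15 and 17, at 229, 191, 233 and 197.5 CPM in the Xcr1/Clec9a cells, and at 178, 187 and 176 CPM in the Lyz2 cells of rows 11, 13 and 15. The Xcr1/Clec9a class was above the Cd79a class in every row, with a fold of 1.46 (on CPM + 10) that did not reach the limit of a call. In the T cell classes Ciita had a pooled level of 5.22 CPM (Rag1) and 2.81 CPM (Ikzf2). Without row 11 these were 2.00 and 2.68 CPM, so that the order of the T cell classes turned.

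The rest class held a minority of cells with high class II RNA. Its Cd74 level was 13770, 4412, 6339 and 5994 CPM in rows 11, 13, 15 and 17, with row 11 highest, and 288 of its 1281 cells had more than 20 Cd74 UMIs and carried 98.5% of its Cd74 UMIs. All 10 genes were called higher in the rest than in the Rag1 class, against 4.7% of the genes compared. When the class was split after the data were seen, the 401 cells with fewer than 2 UMIs of the T cell genes Cd3d, Cd3e, Cd3g and Trac had 18799 CPM of Cd74, and the 880 others had 1803 CPM. The 6 markers of activated dendritic cells (among them Ccr7 and Fscn1) summed to 1786 CPM in the 401 cells, with all 6 at 20 CPM or more, against 77.8 CPM in the Xcr1/Clec9a class and 596 CPM in the Cd79a class. The 10 markers of type 2 dendritic cells and monocytes summed to 902 CPM there. The 9 cDC1 markers summed to 6259 CPM, with 5 at 20 CPM or more, and Xcr1 and Clec9a at 0 by the class rule. Most of this sum was Cst3, with a mean of 49.3 UMIs per cell. The 5 markers of plasmacytoid dendritic cells summed to 849 CPM. They summed to more in the 880 others (1052 CPM), the Rag1 class (1014 CPM) and the Cd79a class (2825 CPM). Lower sums were found in the Ikzf2 (493 CPM), Xcr1/Clec9a (480 CPM) and Lyz2 (571 CPM) classes. Of the 6 markers of thymic epithelium only Epcam reached 20 CPM in the 401 cells, and Psmb11 and Cldn3 were at 0. The H2-DMb2 share among the β genes was 40.2% to 52.8% in these cells, between those of the Cd79a and the Xcr1/Clec9a class.

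Low counts were present in the T cell classes. The median cell had 1 Cd74 UMI in the Rag1 class, in the Ikzf2 class and in the even rows without cells of an antigen-presenting criterion, although the median depth was 14101, 5714 and 3394 UMIs per cell. The medians of the Cd79a, Xcr1/Clec9a and Lyz2 classes were 138, 375.5 and 351 Cd74 UMIs. With each cell thinned to 2000 UMIs, 18% of Rag1 cells (427 cells, 28 shallower cells left out), 26.9% of Ikzf2 cells (1114 cells, 52 left out) and 38.8% of even-row cells (5146 cells, 546 left out) kept a Cd74 UMI. The same share was 98.7% of Cd79a cells. Without thinning the 3 shares of the T cells were 58.5%, 56.9% and 57.8%. In droplet libraries free RNA of broken cells can add such UMIs to any cell, so that these shares may be background. Sorted by depth into 3 equal groups, the even-row cells had means of 0.970, 0.926 and 1.24 Cd74 UMIs per cell from the shallowest to the deepest, where B2m, a gene of every cell, rose from 3.79 to 5.66 and 8.25. The Ikzf2 cells, sorted in the same way, had means of 0.918, 1.01 and 5.83 Cd74 UMIs, highest in the deepest group, while the median was 1 in each group.

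A few cells set the level of the T cell classes. Cd74 lay at 3007, 120, 261 and 46.1 CPM in the Rag1 cells of rows 11, 13, 15 and 17, and at 625, 328, 105 and 316 CPM in their Ikzf2 cells. Of the 455 Rag1 cells, 10 had more than 20 Cd74 UMIs and held 88.2% of the class's Cd74 UMIs, 7 of them in row 11. Of the 1166 Ikzf2 cells, 6 did so and held 62.5%. In the even rows 4 of 5692 cells did, with 10.8%. The median depth of the Rag1 cells was 6894 UMIs in row 11 and 14760.5 to 16040 UMIs in the other rows. Without row 11 the pooled Cd74 level was 152 CPM instead of 522 CPM in the Rag1 class and 260.0 CPM instead of 313 CPM in the Ikzf2 class, so that the Rag1 class was no longer the higher. The same turn was seen for the other 5 of the 6 genes with a higher pooled level in the Rag1 class (H2-Aa, H2-Ab1, H2-Eb1, H2-DMb2 and Ciita), and the rows overlapped for all 6. The even rows without cells of an antigen-presenting criterion stayed within 269 to 369 CPM. Whether the cells above 20 UMIs are doublets of the same hashtag was not tested.

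**Figure D4:**
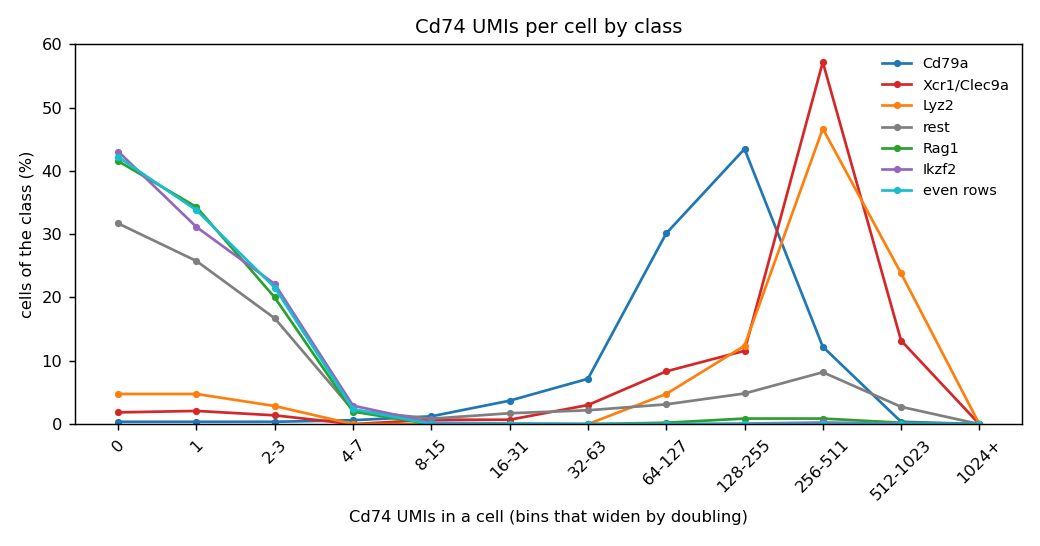
Percent of the cells of each class by their number of Cd74 UMIs, in bins that widen by doubling; lines join the bins of a class, and the even rows are without cells of an antigen-presenting criterion. The Rag1, Ikzf2 and even-row cells pile up at 0 to 3 UMIs, most Cd79a, Xcr1/Clec9a and Lyz2 cells lie above 32, and the rest class has both groups.

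Taken per 100 Cd74 UMIs, the pooled ratios of the chain genes in the T cells were near those of the antigen-presenting classes, but single rows of the Rag1 class were not. H2-Aa had 23.6, 32.4 and 27.6 UMIs per 100 Cd74 UMIs in the Cd79a, Xcr1/Clec9a and Lyz2 classes, and 32.8, 30.2 and 32.2 in the Rag1 class, the Ikzf2 class and the even rows. H2-Eb1 had 19.4 to 23.9 in the former and 22.3 to 26.1 in the latter. H2-Ab1 had 15 in the Cd79a class, 26.1 and 27.3 in the Xcr1/Clec9a and Lyz2 classes and 22.4 to 29.6 in the T cells. The pooled Rag1 ratios mostly reflect row 11, with 2466 of the 3300 Cd74 UMIs of the class. In row 13, with 289 Cd74 UMIs, H2-Ab1 had 63.0 (95% interval 52.0 to 76.1), H2-Eb1 48.8 and H2-Aa 44.3, and in row 17, with 56, H2-Ab1 had 69.6. No row of an antigen-presenting class exceeded 27.3 for H2-Ab1, 24.0 for H2-Eb1 and 33.0 for H2-Aa. H2-DMa and H2-Oa were the only genes for which all 4 rows of the Ikzf2 class lay outside the rows of the 3 antigen-presenting classes. In the even rows this held for H2-DMa and, less far, for Ciita (0.852 to 1.47 against at most 0.841 per 100 Cd74 UMIs). H2-DMa had 2.03, 2.19 and 2.55 in the antigen-presenting classes but 10.9 in the even rows, with 9.49 to 14.4 over the 4 rows, and 16 in the Ikzf2 class, with 9.67 to 31.3. The Rag1 class had 6.15, with 2.60 in row 11 and 20.8, 10.2 and 51.8 in rows 13, 15 and 17, each above the highest row of an antigen-presenting class (2.52). The H2-DMa level was 28.4, 31.4, 39.6 and 35 CPM in rows 12, 14, 16 and 18 and 60.4, 61.2, 33 and 43.1 CPM in the Ikzf2 cells of rows 11, 13, 15 and 17. H2-DMa overlaps Brd2, a gene of the opposite strand, which had a pooled level of 126 to 191 CPM in every class. The labels and methods do not state whether counting used the strand, and the part of Brd2 in the low H2-DMa counts was not tested.

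H2-Oa had higher levels in the Ikzf2 cells than in the Rag1 cells and the even-row cells. It lay at 32.7, 47.1, 29.2 and 45.5 CPM in the Ikzf2 cells of rows 11, 13, 15 and 17. In the Rag1 cells of the same rows it lay at 28, 10.3, 6.41 and 12.4 CPM, and in rows 12, 14, 16 and 18 at 6.09, 4.41, 3.15 and 7.54 CPM. The Ikzf2 cells did not overlap with either, although 29.2 CPM in row 15 lay close to the 28 CPM of the Rag1 cells of row 11. The 880 cells of the rest class with T cell RNA had a pooled H2-Oa level of 29.6 CPM. Their rows ran from 14.9 to 50.5 CPM and overlapped those of the Ikzf2 cells. Per 100 Cd74 UMIs, H2-Oa had 12.8 in the Ikzf2 class (5.23 to 27.8 over the rows), against 1.62 in the Cd79a, 0.32 in the Xcr1/Clec9a and 1.86 in the even-row cells. The Rag1 class had 2.27, and its rows (0.933, 8.65, 2.45 and 26.8 in rows 11, 13, 15 and 17) overlapped those of the Ikzf2 class. At 2000 UMIs per cell, 10.1% of Ikzf2 cells kept an H2-Oa UMI, with 3.98% of Rag1, 1.03% of even-row and 48.3% of Cd79a cells. Unthinned, the shares were 24.6%, 13%, 1.79% and 73.5%. H2-Ob, the partner chain, was at 10.3 CPM in the Ikzf2 class and 3.00 in the Rag1 class, with overlapping rows. Within each of the 4 rows the Ikzf2 cells had the higher H2-Ob level (3.42-fold by the pooled level). The Cd79a class had the highest H2-Oa level. The 10 B cell markers summed to 225 CPM in the Ikzf2, 325 CPM in the Rag1 and 296 CPM in the even-row cells. Ighm, a marker of this list, had means of 1.39, 4.01 and 0.739 UMIs per cell in these groups, which differ in depth. At 2000 UMIs per cell, 24.4%, 39.3% and 33.9% of their cells kept an Ighm UMI. In the Cd79a class 41% did so, with an unthinned mean of 17.1 and median of 1 UMI. As Ighm UMIs were this frequent in the T cells, the sum does not measure B cell RNA alone. Per 100 Cd74 UMIs, Cd79a had 2.09 in the Ikzf2, 0.939 in the Rag1 and 5.49 in the even-row cells. Igkc, also of the list, had 9.59, 3.18 and 17.7. Over the rows of the Ikzf2 class, Cd79a ran from 0.929 to 4.76 and Igkc from 2.62 to 31.3. In the Rag1 class they ran from 0.284 to 14.3 and from 0.770 to 26.8. Cells with at least 2 Cd79a UMIs are in none of these groups. Whether B cell RNA adds to the H2-Oa counts was not tested. Sorted by depth into 3 equal groups, the Ikzf2 cells had 73.1, 72 and 21.8 CPM of H2-Oa from the shallowest to the deepest. H2-Oa overlaps BC051537 on the opposite strand, which had a pooled level of 4.99 CPM or less in every class.

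Of the 10 genes, H2-Oa alone was called higher in the Ikzf2 than in the Rag1 class (3.52% of the 11631 genes compared), with 40.2 against 11.9 CPM and a log2 ratio of 1.20 on CPM + 10. None was called higher in the Rag1 class, where 0.421% of genes were. The classes differed in depth, with a median of 5714 UMIs per cell in the Ikzf2 and 14101 in the Rag1 class. In the deepest group of Ikzf2 cells, with a median of 14132 UMIs per cell, H2-Oa was at 21.8 CPM. Whether H2-Oa would be called between Ikzf2 and Rag1 cells of like depth was not tested. The call was lost with 500 genes and 10% mitochondrial UMIs as cell filters, with cells of more than 4000 genes left out, and with cells meeting more than 1 criterion left out, while the log2 ratio then was 1.15, 1.27 and 1.31. Against the even rows H2-Oa was again the only member called higher in the Ikzf2 class (6.96% of 12450 genes), and none was called lower (4.59%).

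**Figure D5:**
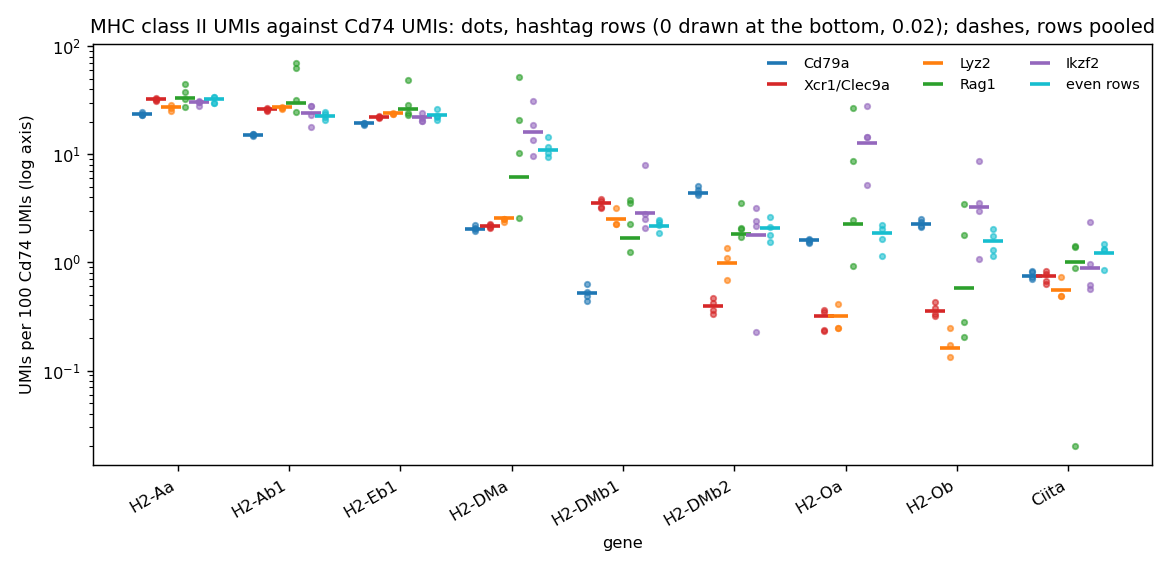
UMIs of each gene per 100 Cd74 UMIs on a log axis, with dots for hashtag rows, dashes for the pooled rows and the even rows without cells of an antigen-presenting criterion; a row at 0 is drawn at 0.02. H2-Aa and H2-Eb1 have pooled ratios between 19.4 and 32.8 in all 6 groups, while H2-DMa and H2-Oa lie higher in the Ikzf2 class (16 and 12.8) than in the Xcr1/Clec9a class (2.19 and 0.32). The rows of the Rag1 class spread widely, from 24.5 to 69.6 for H2-Ab1.

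The other genes of the pathway were read from a list of 33 names, of which 30 were in the files. Against the rest class, which itself holds cells with class II RNA, 9 of the 30 were called higher in the Cd79a class (3.69% of all genes), 7 in the Xcr1/Clec9a class (3.37%) and 3 in the Lyz2 class (3.56%). In the opposite direction 2, 2 and 1 were called (9.46%, 5.14% and 4.24% of genes). Of the members, 5, 8 and 8 were called higher against the rest class and none lower. Against the Ikzf2 class, a comparison added after the data were seen, 17, 14 and 14 of the list were called higher (5.27%, 6.37% and 7.14% of all genes), and 2, 3 and 1 were called higher in the Ikzf2 class. H2-Eb2, a further β chain gene of the locus, was at 148 to 156 CPM in the Cd79a cells, at 2.77 CPM in the Xcr1/Clec9a class and at 5.66 CPM in the Lyz2 class. March1, the ligase that removes class II molecules from the surface, was called higher than in the rest in all 3 classes, at 51.8 CPM (Cd79a), 118 CPM (Xcr1/Clec9a) and 65.1 CPM (Lyz2) against 15.4 CPM.

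Among the proteases, Ctss, which cuts the invariant chain in these cells, was at 336, 323 and 932 CPM in the Cd79a, Xcr1/Clec9a and Lyz2 classes, and at 16.9 and 16.5 CPM in the Rag1 and Ikzf2 classes. Ctsl, which does so in cortical epithelium, was called lower than in the rest in all 3 (7.48, 7.31 and 6.61 against 34.8 CPM), and had 62.3 CPM in the Rag1 class. The thiol reductase gene Ifi30 was at 766, 1199 and 2090 CPM in the antigen-presenting classes. The costimulatory gene Cd86 was at 67.3, 151 and 49.1 CPM, and Cd80 was at 30.7 CPM in the Cd79a class and 4.54 CPM in the Xcr1/Clec9a class. Among the regulators, Irf8 was called higher in the Cd79a and the Xcr1/Clec9a class, at 202 and 1643 CPM. The X box factor genes Rfx5, Rfxap and Rfxank were not called in any class against the rest or the Ikzf2 class. Rfx5 had 22.3, 15 and 19.8 CPM in the antigen-presenting classes and 10.6 and 17.4 CPM in the Rag1 and Ikzf2 classes. Of the 8 genes of the class I list, 6, 4 and 5 were called higher in the Cd79a, Xcr1/Clec9a and Lyz2 classes than in the Ikzf2 class and none lower, and 2, 3 and 0 were called higher than in the rest. Set beside the even rows, they differed among each other. H2-K1, a class I heavy chain gene, was at 2293 CPM in the Cd79a class and 741 CPM in the Xcr1/Clec9a class, and at 2354 CPM in the even rows. Psmb9, an immunoproteasome gene, was at 386, 630 and 318 CPM in the antigen-presenting classes and 152 CPM in the even rows.

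The genes with the pattern most like the sum of H2-Aa, H2-Ab1, H2-Eb1 and Cd74 over 27 points (classes of the odd rows by row, and the even rows) were Ctsh (Pearson r of log2(CPM + 10) 0.98), Rassf4 (0.97), Ncf1 (0.97), Syngr2 (0.97) and Napsa (0.96), among 11013 genes. Ctsh and Napsa encode lysosomal proteases. With CPM + 1 in place of CPM + 10, Ctsh and Rassf4 were again first, followed by Rnase6, Cfp and Ly86. Of the members, Ciita had r 0.98, H2-DMa 0.97 and H2-DMb1 0.93, and the lowest were H2-DMb2 (0.89), H2-Ob (0.80) and H2-Oa (0.78). The points share 1 library, and classes differ in depth and were set by their own marker genes, so these values describe the pattern only.

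In the GENCODE annotation on GRCm38, 8 of the genes lie on chromosome 17: H2-Oa (chr17:34092340-34095234), H2-DMa (chr17:34119541-34139101), H2-DMb2 (chr17:34143307-34151555), H2-DMb1 (chr17:34153072-34160230), H2-Ob (chr17:34238903-34254414), H2-Ab1 (chr17:34257689-34269419) and H2-Eb1 (chr17:34305867-34316674) on the plus strand, and H2-Aa (chr17:34282744-34287823) on the minus strand. Ciita (chr16:10480059-10528418) and Cd74 (chr18:60803848-60812652) lie elsewhere, on the plus strand. The genes with opposite patterns in the Cd79a and Xcr1/Clec9a classes, H2-DMb2 and H2-DMb1, are thus neighbours on the same strand. The promoter stretches above follow the starts of RefSeq, which are not the same as these for every gene.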

How the data were processed

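The authors ran Cell Ranger 6.0.0 on the mouse build mm10 and deposited raw counts of UMIs for 16179 barcodes, without the filters of the study. Labels and methods leave the strand setting unstated. No comparison of the authors is in the files. The members and lists were chosen with earlier results of these data known.

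UMIs were summed over the cells of each row and class and divided by their gene UMIs (CPM). Rows with fewer than 20 cells of a class gave no value. Intervals are exact (Poisson or binomial) at 95% and cover counting error only. Cells are not replicates, and the rows are not assigned to groups, so that there is no test. A gene with at least 20 UMIs was called when the rows did not overlap and the pooled CPM + 10 differed at least 2-fold. The rule was tested on simulated data. Pearson correlations used log2(CPM + 10). Named genes were the 10 members, the genes of the class rule, the marker and pathway lists and the 5 genes most like the members. Brd2, BC051537 and the promoter motifs were named after their values were seen.

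Doublets between rows were removed by the 80% rule. No caller was run on expression, and doublets within a row remain. Alternatives were HTODemux of Seurat 5.3.0 (R 4.3.3), other limits on cells, hashtags, classes and calls, other totals and each row left out. Python 3.11.15, numpy 2.4.6, scipy 1.17.1 and pandas 2.3.3 were used. The 2140 filtered barcodes without a single row and the 4032 barcodes under the filters entered no comparison.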

Additional observations from a re-analysis of the deposited data

Results flagged for a closer look

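Signal was present in barcodes that no comparison used. Cd74 had 2437 CPM in the 4032 barcodes under the filters, which is more than the 270 to 632 CPM of the even rows. In the 2140 filtered barcodes without a single hashtag row it had 6354 CPM.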

How the results depend on the processing

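Of 50 pairs of neighbouring classes in the order of a gene's levels, 14 turned under at least 1 alternative or without a hashtag row. The rows of the pair overlapped for 13 of these. The exception was Ciita, with 234 CPM in the Xcr1/Clec9a and 236 CPM in the Lyz2 class under stricter class limits. Without row 11 the Rag1 class fell below the Ikzf2 class for all 6 genes of which it had the higher level, and the summed level was 320 against 466 CPM. Of 560 recomputed levels of single genes, 83 moved by more than the spread between rows. The summed level of H2-Aa, H2-Ab1, H2-Eb1 and Cd74 in the Cd79a class was 30304 CPM. It was 29653 CPM with HTODemux, 31495 CPM with 90% of hashtag UMIs required, 31338 CPM with at most 4000 genes, 37669.9 CPM without ribosomal and Gm genes in the total, 31292 CPM without cells meeting more than 1 criterion and 31090.3 CPM without cells with T cell RNA. In the Xcr1/Clec9a class the sum was 51992 CPM, with 56331 CPM at 4000 genes, 63244 CPM with the other total, 55522 CPM with stricter class limits and 55357 CPM without cells with T cell RNA. In the Lyz2 class it was 61532 CPM, with 73539 CPM at 4000 genes and 76275 CPM with the other total. The share of Ikzf2 cells with a Cd74 UMI was 26.9%, with 31.7% at 4000 genes and 56.9% unthinned. That of all even-row cells was 38.96%, and 58.01% unthinned. H2-DMa per 100 Cd74 UMIs in the even rows was 7.89 with and 10.9 without cells of an antigen-presenting criterion.

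Members higher in the Ikzf2 than in the Rag1 class numbered 1 (H2-Oa), but 0 with 500 genes and 10% mitochondrial UMIs, with 4000 genes, without cells meeting more than 1 criterion and with a 4-fold limit. Genes higher in the Rag1 than in the Ikzf2 class numbered 49, with 211 at 4000 genes, 86 with stricter class limits and 3 at 4-fold. The 4-fold limit left 170 genes and 1 member higher in the Xcr1/Clec9a than in the Cd79a class, 232 genes and 1 member lower, 72 genes higher in the Ikzf2 than in the Rag1 class, 142 genes and 0 members higher in the Ikzf2 class than in the even rows, and 156 genes lower. The cause was not tested, apart from the 4-fold limit, which calls fewer by construction. Leaving out each hashtag row, the sum ranged from 30226 to 30554 CPM (Cd79a), 51479 to 52553 CPM (Xcr1/Clec9a), 57466 to 66192 CPM (Lyz2), 320 to 1404 CPM (Rag1, lowest without row 11) and 466 to 674 CPM (Ikzf2), and the H2-Oa log2 ratio of the Ikzf2 over the Rag1 class from 1.00 to 1.41. No paired analysis was possible because the rows are tied to no group or replicate number and no test was run; classes of the same row were compared only by counting rows. Row 17 with few Lyz2 cells and low UMI numbers in T cells limit what can be seen there.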
